A study of Homo sapiens with 10 samples.

Results

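The 42 genes described here build cholesterol and fatty acids, control that synthesis, or move cholesterol within and out of the cell. They were chosen by name from textbook knowledge, and each matched 1 row of the deposited RNA-seq table, which holds 13527 features. By role, 19 encode enzymes of sterol synthesis, 13 enzymes of fatty acid synthesis and desaturation, 5 the proteins that control both pathways, and 5 proteins that carry, store or export cholesterol.

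The series asks what the transcription factor SOX4 does in castration-resistant prostate cancer cells. RNA-seq compared DU145 cells with a short hairpin RNA against SOX4 (shSOX4, 3 libraries, genotype SOX4 knockdown) with DU145 cells carrying a control hairpin (shCon, 3 libraries, genotype Scramble). DU145 is an established human prostate cancer line. The cells of all 6 libraries were grown in DMEM with fetal bovine serum, which itself supplies lipids, and received no treatment. The sources used here do not say whether the knockdown line is a pool or 1 clone, or how many hairpin sequences were used.

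Libraries held 31189910 to 43361609 counts. SOX4 was at 4.55, 6.44 and 6.01 CPM (a read count normalised to library size by TMM scaling) in shSOX4 and at 12.9, 10.1 and 8.48 CPM in shCon, so all shSOX4 libraries were lower and 53.9% of the transcript remained. On the second principal component of log2 CPM, which held 15.7% of the variance, shSOX4 1 and shCon 3 stood apart from the other 4 libraries, and results are given with and without these 2 libraries. The epithelial markers EPCAM, CDH1, KRT8, KRT18 and KRT19 all had rows, with a summed level, nearly all keratin, of 6810 to 7710 CPM in shSOX4 and 2960 to 4390 CPM in shCon. KRT8 and KRT18 rose, and EPCAM and CDH1 fell. Of 4 prostate luminal markers 2 had a row, with a summed level of 9.15 to 14.1 CPM in shSOX4 and 8.37 to 14.8 CPM in shCon, and KLK3 and TMPRSS2 had none. Markers of other cell types with a row were 3 of 5 for fibroblasts (summed level 9.55 to 16 CPM in shSOX4, 1.69 to 2.48 CPM in shCon), 1 of 4 for endothelium (4.70 to 6.62 CPM in shSOX4, 0.525 to 0.942 CPM in shCon) and 1 of 4 for leukocytes (44.1 to 52.1 CPM in shSOX4, 95.2 to 113 CPM in shCon). Their part in the results below was not tested, and in bulk RNA fewer cells of a type and less RNA per cell cannot be told apart.

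Cells make cholesterol from acetyl-CoA through mevalonate, the isoprenoid diphosphates and squalene, and make fatty acids from the same acetyl-CoA through malonyl-CoA. Both pathways are driven by sterol regulatory element-binding proteins (SREBPs), made as precursors in the endoplasmic reticulum. SREBF2 encodes the form that acts mainly on cholesterol genes, and SREBF1 encodes forms that act mainly on fatty acid genes. SCAP escorts the precursors to the Golgi, where proteases release the active factor, and the INSIG proteins hold SCAP back when sterols are plentiful.

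Promoter windows for 38 of the 42 genes, from 250 bases before to 50 bases after the annotated start, were taken from RefSeq (GRCh38.p14). Those of SREBF2 and SREBF1 are shown because the 2 transcripts moved in opposite directions, and those of TM7SF2 and ACSS2 because these fell furthest in the sterol and the fatty acid arm. SREBF2 is at chr22:41832855-41833154 (plus strand), SREBF1 at chr17:17836937-17837236 (minus strand), TM7SF2 at chr11:65111622-65111921 (plus strand) and ACSS2 at chr20:34874739-34875038 (plus strand). Capitals mark the core of the sterol regulatory element (TCACNCCAC) and the CCAAT box (CCAAT, or ATTGG where it lies on the other strand).
SREBF2: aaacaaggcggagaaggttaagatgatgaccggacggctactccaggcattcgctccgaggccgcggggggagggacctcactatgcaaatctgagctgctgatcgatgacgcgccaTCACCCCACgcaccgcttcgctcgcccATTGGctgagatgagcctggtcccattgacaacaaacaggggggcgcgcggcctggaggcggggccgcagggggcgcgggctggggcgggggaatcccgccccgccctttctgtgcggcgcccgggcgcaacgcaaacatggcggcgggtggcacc
SREBF1: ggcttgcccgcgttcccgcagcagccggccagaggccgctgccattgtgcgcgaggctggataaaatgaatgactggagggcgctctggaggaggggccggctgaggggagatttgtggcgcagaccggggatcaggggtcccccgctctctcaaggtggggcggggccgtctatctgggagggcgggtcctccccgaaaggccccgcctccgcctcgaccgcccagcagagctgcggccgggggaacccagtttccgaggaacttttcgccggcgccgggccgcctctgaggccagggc
TM7SF2: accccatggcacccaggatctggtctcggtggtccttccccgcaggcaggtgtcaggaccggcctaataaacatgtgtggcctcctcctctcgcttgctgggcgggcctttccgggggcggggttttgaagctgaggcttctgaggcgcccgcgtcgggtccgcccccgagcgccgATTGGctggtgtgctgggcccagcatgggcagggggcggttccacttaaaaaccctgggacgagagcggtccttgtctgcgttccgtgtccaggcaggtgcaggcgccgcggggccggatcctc
ACSS2: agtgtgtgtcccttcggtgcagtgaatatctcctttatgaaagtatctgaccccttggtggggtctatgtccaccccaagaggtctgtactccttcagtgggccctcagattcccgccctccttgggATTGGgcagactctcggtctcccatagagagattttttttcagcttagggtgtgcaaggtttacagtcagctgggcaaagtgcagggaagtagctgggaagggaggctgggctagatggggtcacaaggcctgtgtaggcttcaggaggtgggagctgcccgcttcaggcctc

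The sterol element core was found in 1 of the 38 windows, that of SREBF2, where it begins 133 bases before the start and is followed by a CCAAT box 106 bases before it. Among the windows of 22198 protein-coding genes 1.13% hold this core. CCAAT, searched on both strands, was in 24 of the 38 windows (63.2%), against 34.7% of the windows of protein-coding genes, and in 12 of 16 windows of sterol enzymes (75.0%). The MVK window held 5 CCAAT matches, at 210, 157, 94, 79 and 46 bases before the start. The GC box GGGCGG was in 33 of the 38 windows (86.8%, against 56.3%), the palindromic E-box CACGTG in 6 (15.8%, against 8.34%) and the SOX motif AACAAAG in 0 (against 4.3%). These are matches of letters in a short window, and say nothing of whether a factor binds.

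Of the 42 genes 3 rose and 8 fell in shSOX4 (7.14% and 19%), while 17% of all 13527 features rose and 15.8% fell (32.8% changed). Called here means a Benjamini-Hochberg adjusted p under 0.05 over all features in edgeR's quasi-likelihood test. The 3 that rose were SREBF1, the fatty acid elongase gene ELOVL6 and the sterol exporter gene ABCA1. Of these ABCA1 was kept in the deposited table only through its shSOX4 values, so it could not have been seen to fall. The 8 that fell were SREBF2, the sterol enzyme genes TM7SF2 and LSS, the fatty acid genes ACSS2, SCD and SCD5, and the lysosomal cholesterol genes NPC1 and NPC2. All 11 were also called in the same direction without shSOX4 1 and shCon 3. Leaving out these 2 libraries raised the calls over all features too, to 21.4% up and 19.5% down. Only 5 of the 11 (SREBF1, SREBF2, TM7SF2, ACSS2 and ABCA1) kept their call whichever 1 library was left out.

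**Figure D1:**
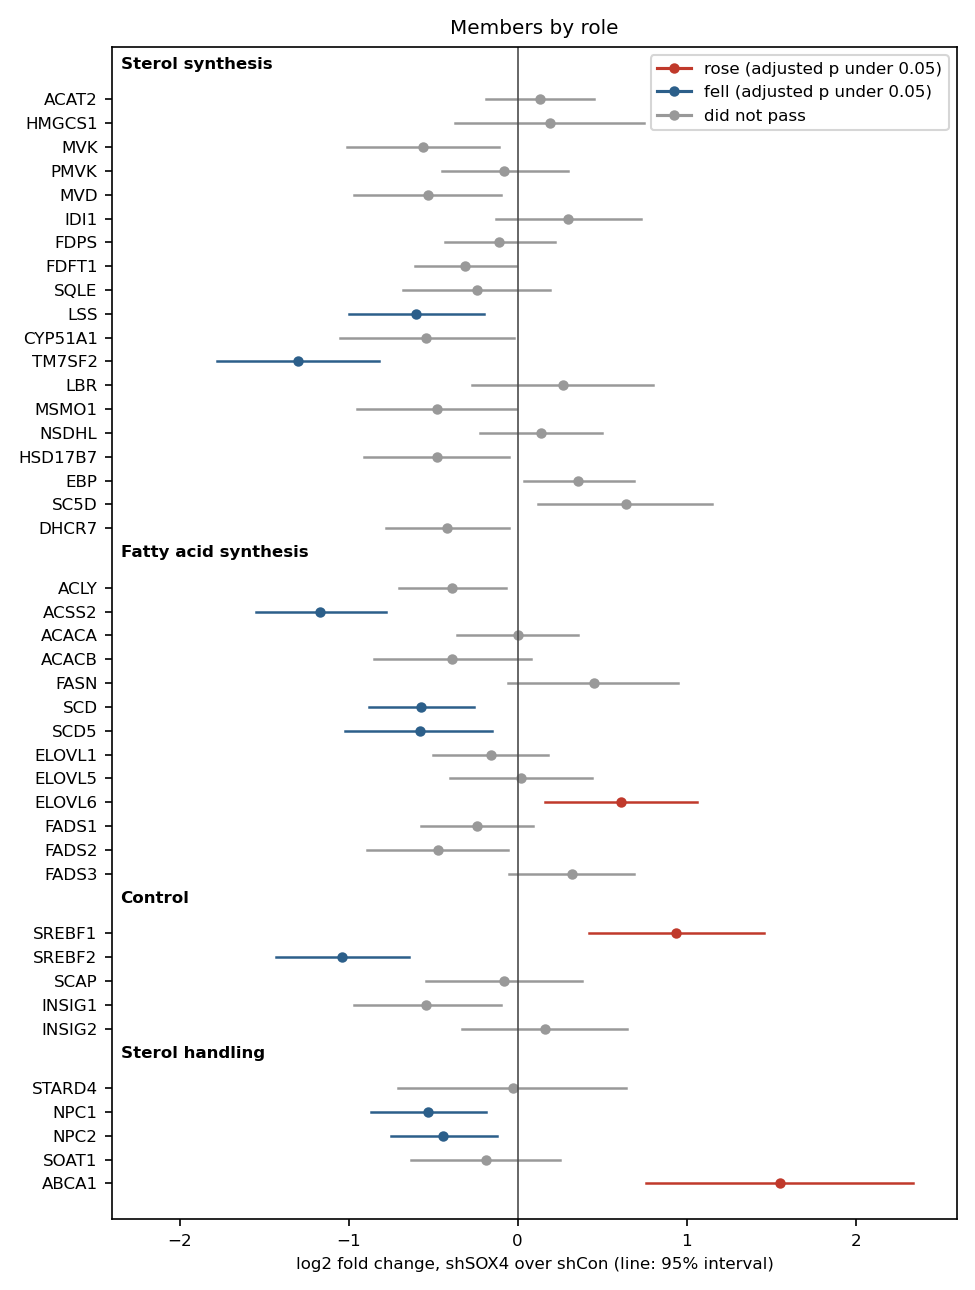
Log2 fold change of each gene, shSOX4 over shCon, with its 95% interval (x axis), grouped by role (y axis); red marks genes that rose, blue genes that fell and grey genes that did not pass. SREBF1 (0.94) and SREBF2 (-1.04) lie on opposite sides of 0, while the sterol enzyme genes other than TM7SF2 lie between -0.60 and 0.64, and TM7SF2 lies at -1.30.

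The arms of the pathway shared the same median. The median log2 fold change was -0.24 over the 19 sterol synthesis genes and -0.24 over the 13 fatty acid synthesis genes, against -0.01 over all features. In the sterol arm 12 genes were below 0 and 7 above. In edgeR's test 2 fell and 0 rose (10.5% fell, against 15.8% of all features, while 17% of all features rose). DESeq2 called 4 down, with MVK and MVD added, and SC5D up. In the fatty acid arm 9 were below 0 and 4 above, and 3 fell while 1 rose (23.1% and 7.69%). DESeq2 also called ACLY down in this arm (adjusted p = 0.0438). In the authors' deposited table, whose adjusted p-values are mostly those of DESeq2, 17.8% of all features were down and 19.2% up. The difference between the arms was not tested. Leaving out 1 library gave from 1 sterol fall (without shSOX4 2 or shSOX4 3) to 4 (without shCon 1) and 5 (without shSOX4 1), and from 1 fatty acid fall (without shSOX4 3) to 4 (without shSOX4 1). The number of fatty acid genes that rose was 0 without shCon 1, shCon 2 or shSOX4 2. ELOVL6 was called only without shSOX4 1, so a fatty acid rise without shCon 3 or shSOX4 3 was of a different gene. In the sterol arm 1 gene rose without shCon 1, shCon 3 or shSOX4 1. With 2 libraries a group, leaving out shSOX4 1 and shCon 3, 8 sterol genes fell and 2 rose (42.1% and 10.5%), and 5 fatty acid genes fell and 2 rose (38.5% and 15.4%), beside 19.5% of features down and 21.4% up in that comparison.

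The sterol arm's summed FPKM, a level per length of gene, was 1690, 1660 and 1510 in shSOX4 1, 2 and 3, against 1790, 1870 and 1850 in shCon 1, 2 and 3. That of the fatty acid arm was 615, 638 and 555 in shSOX4, against 752, 705 and 720 in shCon. In both arms every shSOX4 library was below every shCon library. These sums are weighted to abundant transcripts and do not describe each gene. Most of the sterol sum came from FDPS (mean 632 FPKM in shSOX4, 672 in shCon), FDFT1 (292 and 360) and DHCR7 (143 and 188), none of which was called. In the fatty acid sum SCD was the most abundant (122 and 180). Of the 19 sterol genes 8 had values that did not overlap between the groups, 6 with shSOX4 below and 2 with it above, and of the 13 fatty acid genes 6, with 5 below and 1 above. Over all features 47% did not overlap, 23.9% with shSOX4 below and 23.1% with it above.

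Among the controllers the SREBP genes moved apart. SREBF2 (ENSG00000198911) was at 242, 199 and 170 CPM in shSOX4 1, 2 and 3, against 396, 352 and 503 CPM in shCon 1, 2 and 3. Every shSOX4 library was below every shCon library, and 48.8% of the transcript remained (log2 fold change -1.04, SE 0.183, adjusted p = 0.000928). SREBF1 (ENSG00000072310) was at 111, 82.9 and 62.0 CPM in shSOX4, against 33.9, 39.6 and 60.1 CPM in shCon. Its groups did not overlap either, but the lowest shSOX4 library and the highest shCon library were close, and it rose 1.92-fold (log2 0.94, SE 0.243, adjusted p = 0.00982). Both calls held when any 1 library was left out.

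Set against each other within a library, so that the scaling between libraries drops out, the ratio of SREBF1 to SREBF2 in FPKM was 0.677, 0.561 and 0.487 in shSOX4 1, 2 and 3, against 0.116, 0.154 and 0.179 in shCon 1, 2 and 3. SREBF2 stayed the more abundant of the pair per length in all 6 libraries. The introns of both genes hold a microRNA gene (MIR33B in SREBF1, MIR33A in SREBF2), and RefSeq also places SREBF2-AS1 over SREBF2 and RAI1 over SREBF1. The sources used here do not give the strand setting of the counting, so reads of such overlapping genes cannot be told apart.

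The escort SCAP (ENSG00000114650) was at 96.5, 78.7 and 58.5 CPM in shSOX4, against 74.5, 67.3 and 106 CPM in shCon. The groups overlapped, and the log2 fold change was -0.08 with a 95% interval from -0.54 to 0.38 (adjusted p = 0.794). INSIG1 (ENSG00000186480), itself a well known SREBP target, was at 72.3, 66.5 and 75.5 CPM in shSOX4, against 135, 101 and 74.1 CPM in shCon. The shSOX4 libraries lay close together, and shCon 3 was at their level while shCon 1 and 2 were above it. The value of -0.54 (SE 0.203) did not pass (adjusted p = 0.0562), whereas without shSOX4 1 and shCon 3 it was -0.73 and passed (adjusted p = 0.00144).

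INSIG2 (ENSG00000125629), the second INSIG gene, was at 9.50, 11.5 and 9.61 CPM in shSOX4, against 11.4, 9.22 and 6.73 CPM in shCon, with a log2 fold change of 0.16 (interval -0.33 to 0.65, adjusted p = 0.615). Per length INSIG1 exceeded INSIG2 in every library. The FPKM ratio of INSIG1 to INSIG2 was 6.88, 5.30 and 6.96 in shSOX4, against 10.3, 9.49 and 9.44 in shCon, and these ratios did not overlap.

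**Figure D2:**
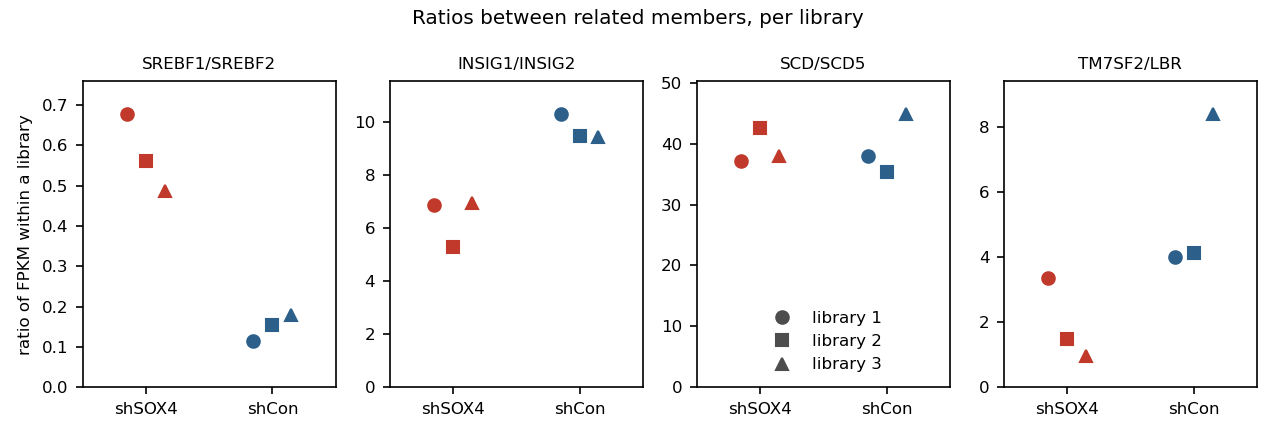
Ratio of FPKM between related genes within each library (y axis, linear, from 0) in shSOX4 and shCon (x axis); symbols give the library number. The SREBF1/SREBF2 ratio is 0.487 to 0.677 in shSOX4 and 0.116 to 0.179 in shCon, and the SCD/SCD5 ratio overlaps between the groups.

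In the sterol arm the early enzymes were not called in either direction. ACAT2, which joins acetyl-CoA units in the first step, had a log2 fold change of 0.13 (interval -0.19 to 0.45), and HMGCS1, the HMG-CoA synthase gene, of 0.19 (interval -0.37 to 0.75). The mevalonate kinase gene MVK was at 46.3, 36.2 and 36.3 CPM in shSOX4, against 46.0, 52.9 and 76.4 CPM in shCon. Its groups overlapped by a narrow margin between shSOX4 1 and shCon 1, and its value of -0.56 missed the threshold (adjusted p = 0.0534). MVD, the mevalonate diphosphate decarboxylase gene, was at 152, 129 and 97.3 CPM in shSOX4, against 157, 157 and 234 CPM in shCon. The groups did not overlap, and the value of -0.53 likewise missed (adjusted p = 0.0567). PMVK, the kinase between these steps, had a value of -0.08 (interval -0.45 to 0.30).

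The isoprenoid and squalene steps lie next. IDI1, the isopentenyl diphosphate isomerase gene, had a value of 0.30 (adjusted p = 0.266) and FDPS, the farnesyl diphosphate synthase gene, one of -0.11 (adjusted p = 0.616). FDFT1, the squalene synthase gene, was at 582, 563 and 590 CPM in shSOX4, against 720, 744 and 691 CPM in shCon. Libraries of a group were close together and the groups apart, but the change of -0.31 did not pass (adjusted p = 0.0990). SQLE, the squalene epoxidase gene, had a value of -0.24 with overlapping groups (adjusted p = 0.375). RefSeq names 10 FDPS and 3 IDI1 pseudogenes, and the sources used here do not say how the counting divided reads among such copies.

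From lanosterol on, 2 genes fell. LSS (ENSG00000160285), which closes the sterol rings to lanosterol, was at 99.4, 81.1 and 80.7 CPM in shSOX4, against 112, 115 and 167 CPM in shCon. All shSOX4 libraries were lower, and 66.1% remained (log2 -0.60, SE 0.186, adjusted p = 0.0247). This call was lost without shCon 3, without shSOX4 2 or without shSOX4 3 (adjusted p up to 0.110). TM7SF2 (ENSG00000149809), a sterol reductase gene of the next steps, was at 45.1, 35.7 and 26 CPM in shSOX4, against 80.6, 72.3 and 110 CPM in shCon. It had the largest fall of the 42, with 40.5% remaining (log2 -1.30, SE 0.224, adjusted p = 0.000774), and held in all 6 fits that left out 1 library.

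LBR, the lamin B receptor, is a nuclear envelope protein that also carries the sterol reductase activity TM7SF2 has. It was at 30.4, 53.1 and 61.9 CPM in shSOX4, against 46.9, 43.9 and 30.1 CPM in shCon, with a log2 fold change of 0.27 (interval -0.27 to 0.80, adjusted p = 0.435). The ratio of TM7SF2 to LBR in FPKM was 3.35, 1.48 and 0.957 in shSOX4, against 4.00, 4.13 and 8.39 in shCon. Ratios in shSOX4 were all lower, with shSOX4 1 close to shCon 1.

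Of the remaining sterol enzymes none passed. CYP51A1, the lanosterol demethylase gene, had a value of -0.54 (adjusted p = 0.101), MSMO1, the methylsterol monooxygenase gene, -0.48 (adjusted p = 0.110), and HSD17B7, a ketosteroid reductase gene with 2 named pseudogenes, -0.48 (adjusted p = 0.0789). NSDHL, which works beside MSMO1, had a value of 0.14 (adjusted p = 0.553). EBP, the sterol isomerase gene, was at 203, 191 and 202 CPM in shSOX4, against 139, 159 and 166 CPM in shCon. Its shSOX4 libraries were all above, with a value of 0.36 (adjusted p = 0.0777). SC5D, the desaturase gene that follows EBP, was at 14.4, 19.6 and 17.4 CPM in shSOX4, against 14.1, 11.4 and 7.46 CPM in shCon. Its groups were apart by a narrow margin, with a value of 0.64 (adjusted p = 0.0547). DHCR7, the reductase gene of the last step, had a value of -0.42 (adjusted p = 0.0734) with all shSOX4 libraries lower.

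Ranked per length, FDPS was the most abundant sterol transcript at 632 ± 67 FPKM in shSOX4 and 672 ± 37.3 FPKM in shCon (SD, n = 3 each), followed by FDFT1 at 292 ± 10.1 FPKM in shSOX4 and 360 ± 34.9 FPKM in shCon. DHCR7 was the next, at 143 ± 14.4 FPKM in shSOX4 and 188 ± 25 FPKM in shCon. Below them MVD, EBP, PMVK and ACAT2 were at 71.5 ± 16.6, 106 ± 0.809, 71.3 ± 9.31 and 79.8 ± 3.48 FPKM in shSOX4 and at 105 ± 18.1, 83.4 ± 5.62, 74.2 ± 8.56 and 72.6 ± 8.83 FPKM in shCon. In shSOX4 EBP stood above PMVK and ACAT2 by more than their spread, whereas in shCon EBP, PMVK and ACAT2 lay within about their spread of each other. SC5D was the lowest, at 6.54 ± 1.2 FPKM in shSOX4 and 4.22 ± 1.49 FPKM in shCon.

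**Figure D3:**
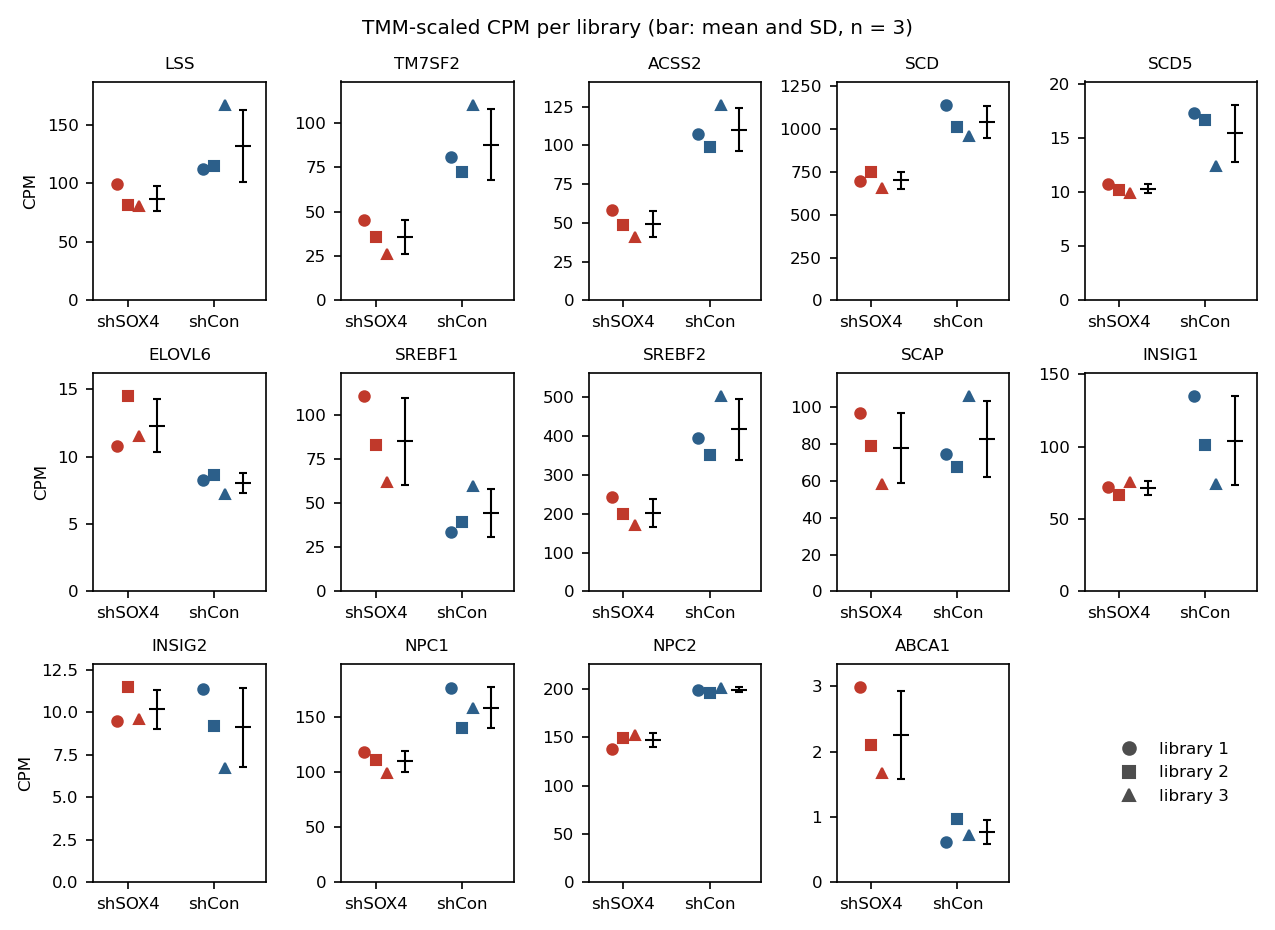
TMM-scaled CPM (y axis, linear, from 0) in each shSOX4 and shCon library (x axis) for the 11 genes that were called and the other controllers; symbols give the library number, and black bars the mean and SD of 3 libraries. ACSS2, TM7SF2, SREBF2 and NPC2 show separate groups, and SCAP and INSIG2 overlap.

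In the fatty acid arm ACSS2 fell furthest. ACSS2 (ENSG00000131069), which makes cytosolic acetyl-CoA from acetate, was at 58.2, 48.6 and 41 CPM in shSOX4, against 107, 98.8 and 126 CPM in shCon. The groups were far apart, 44.6% remained (log2 -1.17, SE 0.182, adjusted p = 0.000379), and the call held in all 6 fits that left out 1 library. ACLY, which makes the same acetyl-CoA from citrate, was at 358, 359 and 326 CPM in shSOX4, against 463, 418 and 484 CPM in shCon. Its groups did not overlap, and its value of -0.39 (SE 0.147) missed the threshold (adjusted p = 0.0561).

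The synthesis steps proper were not called. ACACA, the main cytosolic acetyl-CoA carboxylase gene, was at 56.9, 72.7 and 64.4 CPM in shSOX4, against 68.4, 67.4 and 58.4 CPM in shCon, with a 95% interval of the log2 fold change from -0.36 to 0.36. ACACB, the carboxylase tied to mitochondria, had a value of -0.39 (adjusted p = 0.187). FASN, fatty acid synthase, was at 612, 483 and 305 CPM in shSOX4, against 349, 254 and 425 CPM in shCon. Its libraries spread widely within each group, and its value of 0.45 had an interval from -0.06 to 0.95 (adjusted p = 0.159).

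Both stearoyl-CoA desaturase genes, whose enzymes put the first double bond into saturated chains, fell. SCD (ENSG00000099194), the most abundant fatty acid transcript per length, was at 696, 750 and 653 CPM in shSOX4, against 1140, 1010 and 960 CPM in shCon. The groups were apart and 67.5% remained (log2 -0.57, SE 0.145, adjusted p = 0.00949), a call lost without shSOX4 3 (adjusted p = 0.0515). SCD5 (ENSG00000145284) was at 10.7, 10.2 and 9.94 CPM in shSOX4, against 17.3, 16.6 and 12.4 CPM in shCon. It kept 66.7% (log2 -0.58, SE 0.202, adjusted p = 0.0393), but lost its call under total-count scaling, with log2(FPKM + 1) (adjusted p = 0.0731) and without shCon 1, shCon 2, shSOX4 2 or shSOX4 3 (adjusted p up to 0.137). The FPKM ratio of SCD to SCD5 was 37.1, 42.5 and 38 in shSOX4, against 37.9, 35.3 and 44.8 in shCon, so the ratios overlapped.

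Elongases and the polyunsaturated desaturases varied in direction. ELOVL6 (ENSG00000170522), which lengthens palmitate, was at 10.8, 14.5 and 11.5 CPM in shSOX4, against 8.26, 8.63 and 7.20 CPM in shCon. All shSOX4 libraries were above, and it rose 1.53-fold (log2 0.61, SE 0.209, adjusted p = 0.0373), yet the call held only without shSOX4 1 among the 6 fits that left out 1 library (adjusted p up to 0.186), was lost under total-count scaling, and its FPKM did not pass (0.37 on the log2(FPKM + 1) scale, adjusted p = 0.136). ELOVL1 (-0.16) and ELOVL5 (0.02), which act on very long and polyunsaturated chains, overlapped between groups. FADS2 was at 325, 279 and 227 CPM in shSOX4, against 336, 322 and 496 CPM in shCon, with a value of -0.47 (adjusted p = 0.0752). FADS1, the second enzyme of polyunsaturated fatty acid desaturation, had a value of -0.24 (adjusted p = 0.238) and its relative FADS3 one of 0.32 (adjusted p = 0.171). RefSeq's FADS1 and FADS2 overlap, so their reads are uncertain in how they were divided.

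Genes that handle cholesterol after synthesis or uptake included 2 falls and 1 rise. NPC1 (ENSG00000141458), the lysosomal membrane protein that exports cholesterol, was at 119, 111 and 99.9 CPM in shSOX4, against 177, 140 and 159 CPM in shCon. NPC2 (ENSG00000119655), its soluble partner in the lysosome, was at 138, 149 and 152 CPM in shSOX4, against 199, 196 and 201 CPM in shCon. Both pairs of groups were apart, with 69.2% of NPC1 (log2 -0.53, SE 0.160, adjusted p = 0.0209) and 73.8% of NPC2 (log2 -0.44, SE 0.147, adjusted p = 0.0342) remaining. The NPC1 call was lost without shCon 1, shSOX4 2 or shSOX4 3 (adjusted p up to 0.0883) and with log2(FPKM + 1) (adjusted p = 0.0562), and the NPC2 call without any single library other than shCon 3 (adjusted p up to 0.117).

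ABCA1 (ENSG00000165029), which exports cholesterol to lipoproteins, was at 2.99, 2.1 and 1.67 CPM in shSOX4, against 0.613, 0.967 and 0.729 CPM in shCon. The groups were apart, and it rose 2.93-fold (log2 1.55, SE 0.371, adjusted p = 0.00639) and held in all 6 fits that left out 1 library. The deposited table holds only features with at least 1 CPM in at least 3 libraries, so ABCA1 was kept through its shSOX4 values and could not have been seen to fall. Its counts were 102, 68 and 56 in shSOX4 and 28, 36 and 25 in shCon.

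SOAT1, which esterifies cholesterol for storage, had a value of -0.19 with overlapping groups (adjusted p = 0.496). STARD4, a cytosolic sterol carrier, was at 2.73, 7.71 and 6.46 CPM in shSOX4, against 6.16, 5.94 and 5.16 CPM in shCon. The low CPM of shSOX4 1 was not matched by the deposited FPKM of STARD4, which was 2.17, 2.19 and 1.97 in shSOX4 and 1.92, 1.71 and 1.25 in shCon. Its count and FPKM therefore disagree by library, and neither value passed (log2 -0.03, adjusted p = 0.948). Of the 42 genes, 5 had a ratio of count to FPKM that spread by more than 20% of its mean over libraries, namely STARD4, ACACB, IDI1, ELOVL6 and ACACA.

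Just short of the threshold, with an adjusted p from 0.0534 to 0.0990, stood further genes. MVK, MVD, FDFT1, HSD17B7, DHCR7, ACLY, FADS2 and INSIG1 were lower in shSOX4, and EBP and SC5D higher. The share of all features in this band and its split by direction were not counted, so these genes are only listed. At an adjusted p under 0.05, the authors' deposited table had 4 of the 42 up and 12 down (19.2% and 17.8% of its features were up and down), and the 11 called here were among these 16 with the same sign. The 5 added there were, in the authors' deposited table, SC5D (log2 0.60), MVK (-0.53), MVD (-0.50), INSIG1 (-0.50) and ACLY (-0.37).

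The 2 libraries that stand apart divided the sterol genes into opposing sets. In 7 of the 19, HMGCS1, IDI1, SQLE, CYP51A1, LBR, MSMO1 and SC5D, shSOX4 1 was the lowest shSOX4 library and shCon 3 the lowest shCon library. In 8 others, MVK, PMVK, MVD, FDPS, LSS, TM7SF2, EBP and DHCR7, these same libraries were the highest of their group. Over all features 29.9% showed the first pattern and 28.8% the second, so the members' shares of 36.8% and 42.1% are given as a description, and their difference from all features was not tested. For HMGCS1 the difference in log2 CPM from the other 2 libraries of the group was -0.68 in shSOX4 1 and -0.87 in shCon 3, both larger in size than its log2 fold change of 0.19.

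Among the controllers SREBF1, SREBF2 and SCAP were highest in both of these libraries, by 0.39 to 0.63 in shSOX4 1 and by 0.43 to 0.70 in shCon 3 on the log2 scale. FASN was higher by 0.67 in shSOX4 1 and by 0.51 in shCon 3. The spread that these 2 libraries add lies within each group, and what sets them apart was not tested.

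**Figure D4:**
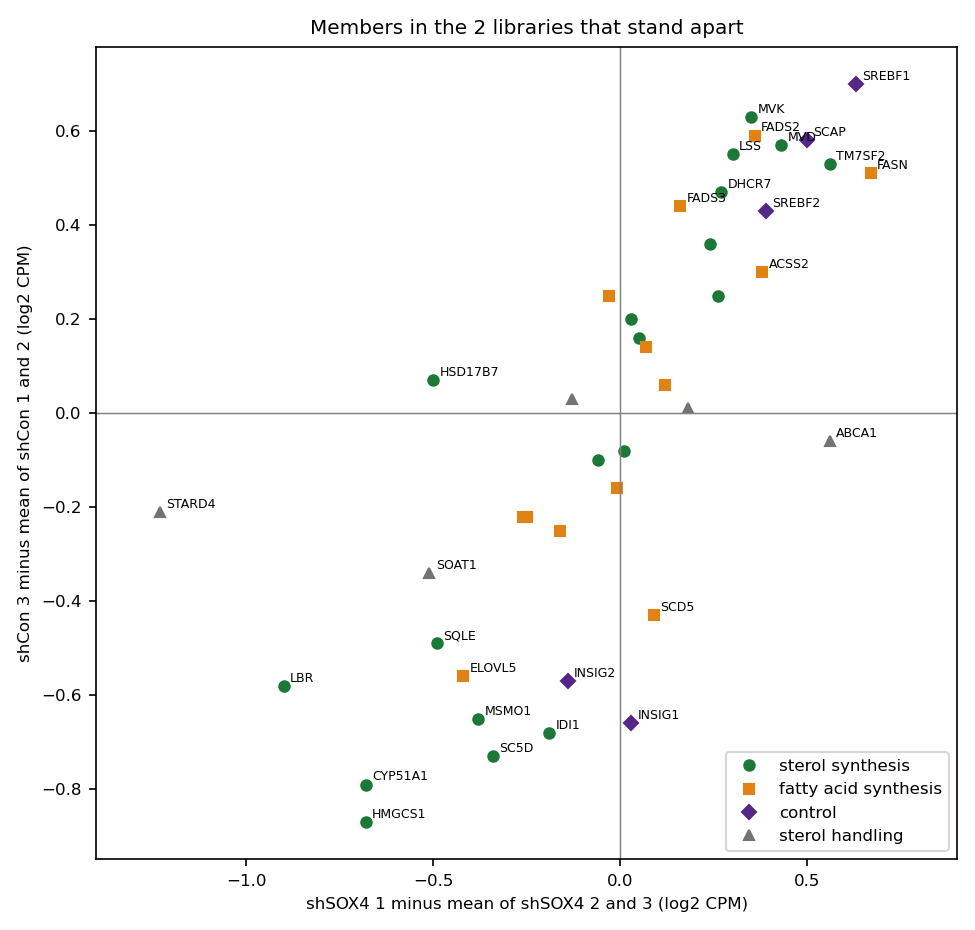
Difference in log2 CPM (0.5 CPM added) of shSOX4 1 from the mean of shSOX4 2 and 3 (x axis) and of shCon 3 from the mean of shCon 1 and 2 (y axis), 1 point per gene, shaped and coloured by role. Sterol enzyme genes fall into a lower left set led by HMGCS1, CYP51A1 and LBR and an upper right set with MVK, MVD and TM7SF2; SREBF1, SREBF2, SCAP and FASN lie in the upper right.

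Genes next to these pathways were read from 7 lists chosen from textbook knowledge, with up to 3 genes of each list taken by smallest adjusted p and a few more named after their values were seen. In SREBP processing the protease genes moved in opposite directions. MBTPS2, the protease gene for the second cut of SREBP precursors, was at 13.6, 15.3 and 13.8 CPM in shSOX4, against 5.39, 4.81 and 3.26 CPM in shCon. It rose 3.16-fold (log2 1.66, SE 0.231, adjusted p = 0.000143) with the groups far apart. MBTPS1, the protease gene for the first cut, fell to 112 ± 5.49 CPM in shSOX4, against 151 ± 9.17 CPM in shCon (SD, n = 3 each; log2 -0.43, adjusted p = 0.0403), a call lost without any single library other than shCon 3.

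In acyl-CoA activation and glycerolipid synthesis 3 of 16 genes rose and 3 fell (18.8% each, against 17% and 15.8% of all features). DGAT2, which makes triglyceride, was at 17.1, 16.7 and 14.6 CPM in shSOX4, against 41.3, 42.6 and 48.8 CPM in shCon. With the groups far apart, 36.5% remained (log2 -1.46, SE 0.181, adjusted p = 5.25e-05). ACSL4, an acyl-CoA synthetase gene with a preference for polyunsaturated chains, rose to 28.7 ± 3.26 CPM in shSOX4, against 14.1 ± 1.47 CPM in shCon (log2 1.02, adjusted p = 0.00127), and AGPAT3 fell (-0.73, adjusted p = 0.00337). The other rises were ACSL1 (0.72) and GPAM (0.85) and the other fall PLIN3 (-0.58, lost without shSOX4 2 or shSOX4 3). ACSL4 alone rose under total-count scaling and without shCon 2, shCon 3, shSOX4 2 or shSOX4 3.

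Of 10 further genes of chain elongation 3 rose (30%, against 17% of all features). These were the dehydratase genes HACD2 (log2 1.00, adjusted p = 0.00297), HACD1 (0.72, adjusted p = 0.0104) and HACD3 (0.81, adjusted p = 0.0340), whose enzymes act in the same cycle as the ELOVL proteins. HACD3 lost its call under total-count scaling and without shCon 3, shSOX4 2 or shSOX4 3, and the fourth gene of the family, HACD4, had a value of -0.32 (adjusted p = 0.446).

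In citrate and NADPH supply PGD, which makes NADPH in the pentose phosphate pathway, fell to 212 ± 10.3 CPM in shSOX4, against 293 ± 36.9 CPM in shCon (SD, n = 3 each; log2 -0.46, adjusted p = 0.0339). This call was lost without shCon 2, shCon 3, shSOX4 2 or shSOX4 3. SLC25A1, the mitochondrial citrate exporter gene, had a value of -0.31 (adjusted p = 0.234).

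Fatty acid oxidation, the opposing pathway, had 4 of 16 genes up and 3 down (25% and 18.8%, against 17% and 15.8% of all features). ACADVL, the dehydrogenase gene for very long chains, fell to 291 ± 46.1 CPM in shSOX4, against 514 ± 71.8 CPM in shCon (log2 -0.82, adjusted p = 0.00258), and ACADM, that for medium chains, rose to 28.1 ± 2.76 CPM in shSOX4, against 14 ± 3.4 CPM in shCon (log2 1.01, adjusted p = 0.00312). The carnitine carrier gene SLC25A20 rose (0.68), as did CPT1A (0.50) and ETFA (0.66), while ACADS (-0.81) and HADHB (-0.51) fell. The CPT1A call (adjusted p = 0.0446) was lost in each of the 6 fits that left out 1 library, that of HADHB without shCon 1, shCon 2, shSOX4 2 or shSOX4 3, that of ETFA without shCon 3, shSOX4 2 or shSOX4 3, that of ACADS without shSOX4 2 or shSOX4 3 and that of SLC25A20 without shCon 1 or shSOX4 2. Of the oxidation genes 1 rose and 1 fell without shSOX4 2, and 2 rose and 1 fell without shSOX4 3. The number that rose was 2 without shCon 3 or under total-count scaling.

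In the isoprenoid branch, which uses farnesyl diphosphate for protein prenylation, dolichol and ubiquinone, 3 of 14 genes rose (21.4%, against 17% of all features). ZMPSTE24, a protease gene for prenylated proteins, rose to 34.8 ± 5.19 CPM in shSOX4, against 13 ± 1.52 CPM in shCon (log2 1.42, adjusted p = 0.000134), RABGGTB, a Rab geranylgeranyl transferase subunit gene, by 0.89 (adjusted p = 0.00623) and PDSS1, which makes the ubiquinone tail, by 0.88 (adjusted p = 0.0285, lost without shCon 2, shCon 3, shSOX4 2 or shSOX4 3).

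Among 15 measured genes of oxysterol sensing and sterol traffic 1 rose and 4 fell (6.67% and 26.7%, against 17% and 15.8% of all features). NR1H2, a liver X receptor gene, fell to 160 ± 26.6 CPM in shSOX4, against 270 ± 56.5 CPM in shCon (log2 -0.76, adjusted p = 0.00720), while its paralogue NR1H3 rose to 32.5 ± 3.97 CPM in shSOX4, against 21.1 ± 3.81 CPM in shCon (log2 0.63, adjusted p = 0.0246). The rise of NR1H3 was lost without shCon 1, shCon 2, shSOX4 1 or shSOX4 2. CYP27A1, the sterol hydroxylase gene, fell (-1.31, adjusted p = 0.00145), and so did GRAMD1B (-0.77, adjusted p = 0.00428) and GRAMD1A (-0.71, adjusted p = 0.0145, lost without shSOX4 2 or shSOX4 3), whose proteins bring cholesterol from the plasma membrane to the endoplasmic reticulum. Without shSOX4 1 and shCon 3 together 7 of this list fell, beside 19.5% of all features.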

How the data were processed

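RNA-seq of 3 shSOX4 and 3 shCon libraries was used, and 4 ATAC-seq libraries were not analysed here. The deposited table gives whole-number counts per gene and the authors' FPKM, per the file headers, with the authors' adjusted p-value and log2 fold change. Its column letters SH and NC were read as shSOX4 and shCon with the labels' numbers. Per the submitters' processing notes the build was hg19, and tools listed without roles were deepTools 2.07, MACS2 2.1.1, Bowtie2, STAR and HISAT2. The counting program and strand setting were not given in those sources. Of 13521 features, 89.3% had an authors' adjusted p within 1% of DESeq2's here, so the deposited calls and the DESeq2 alternative are not separate evidence.

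Counts were tested with edgeR 4.0.16, run under R 4.3.3, by its two-sided quasi-likelihood F test (filterByExpr, TMM scaling, group as only term, Benjamini-Hochberg over 13527 features). SE and 95% intervals come from that test. The script was tested on simulated data, where it recovered 10 of 67 changes of 1.5-fold, 53 of 67 of 2-fold and 66 of 66 of 4-fold. Far fewer features changed there than were called here, so these shares do not carry over directly. Genes that were not called may still have changed by such small amounts. The labels do not name separate cultures for the libraries of a group. The p-values then reflect only library-to-library spread, which may be technical. No pair within a group was a duplicate (chi-square per degree of freedom 28.8 to 139). Gene membership, lists and alternatives (RLE and total-count scaling, filters, DESeq2 1.42.0, limma-voom with limma 3.58.1, log2(FPKM + 1) at a mean FPKM of at least 1, replicate block, left-out libraries, no newGene loci) were chosen with earlier results of these data known. Named are all members, per library where called or a controller, and up to 3 genes per list by adjusted p. Some list genes, and the counts of their lists, are not reported here.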

Additional observations from a re-analysis of the deposited data

How the results depend on the processing

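Of 671 alternative fits of single members 574 kept direction and side of the threshold, 31 lost a call, 45 gained one and 21 changed sign, none of these 21 for a called gene. Sign changes came when 1 library was left out, over which the log2 fold change ran from -0.05 to 0.49 for HMGCS1 (negative without shCon 3), -0.19 to 0.06 for PMVK (positive without shCon 3 or shSOX4 3), -0.09 to 0.09 for ACACA (just below 0 with all libraries, positive without shCon 1, shCon 2, shSOX4 1 or shSOX4 3), -0.14 to 0.20 for ELOVL5 (negative without shCon 3, shSOX4 2 or shSOX4 3), -0.25 to 0.14 for SCAP (positive without shCon 3 or shSOX4 3), -0.01 to 0.36 for INSIG2 (negative without shCon 3) and -0.33 to 0.31 for STARD4 (positive without shCon 1 or shSOX4 1). Others were ACACA (0.02), ELOVL5 (-0.01) and STARD4 (0.23) without shSOX4 1 and shCon 3 together, ACACA under RLE scaling and DESeq2 (0.00 each), and STARD4 with log2(FPKM + 1) (0.25).

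Sterol genes that fell numbered 4 under total-count scaling, with features of at least 1 CPM in all 3 libraries of a group (13240 of 13527), with DESeq2 and without newGene loci, 1 with the replicate block, 1 to 5 when 1 library was left out (5 without shSOX4 1, 4 without shCon 1, 1 without shSOX4 2 or shSOX4 3) and 8 without both libraries that stand apart. Sterol genes that rose numbered 1 under RLE scaling, total-count scaling and DESeq2, 0 to 1 when 1 library was left out and 2 without both. Fatty acid genes that fell numbered 1 to 4 when 1 library was left out (1 without shSOX4 3) and 5 without both; 0 rose under total-count scaling, with log2(FPKM + 1) and with the replicate block, 0 to 1 when 1 library was left out, and 2 without both. Of the 10 controllers and handling genes 1 fell with the replicate block, 1 to 4 fell when 1 library was left out (1 without shCon 1, shSOX4 2 or shSOX4 3), and 1 rose with log2(FPKM + 1), where ABCA1 was under the filter. The sterol median was -0.25 under total-count scaling, -0.22 with log2(FPKM + 1) and -0.32 to -0.19 when 1 library was left out. All features that rose numbered 1514 with log2(FPKM + 1) and 1411 to 2653 when 1 library was left out, and all features that fell 1098 to 2313, the fewest without shSOX4 2. The cause of these shifts was not tested. Same-numbered libraries did not deviate together (correlations -0.29, 0.159 and -0.293), so the replicate number only names a library; with the replicate block the count was 1825 for all features that rose and 1549 for all features that fell.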
